A study of Homo sapiens with 4 samples.

Results

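The genes described are YBX1, its relative YBX3, and 5 genes whose proteins share messenger ribonucleoproteins with YBX1: PABPC1, LARP1, ELAVL1, CAPRIN1 and G3BP1. They were taken from 2 annotated lists of peaks of RNA recovered with YBX1, as every row whose gene symbol was one of these 7. Of 60488 rows in the replicate 1 list, 29 named a member, and of 55416 in the replicate 2 list, 23 did. Collapsed to unique peaks these were 20 of 27669 and 14 of 25492. The lists named 14483 genes between them and 6 of the 7 members. G3BP1 had no row in either list.

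YBX1 RNA immunoprecipitation was carried out in PANC-1, an established line of human pancreatic cancer cells. Every culture had been pretreated with CAFs-derived Evs, as the labels spell it; in this field the terms stand for cancer-associated fibroblasts and extracellular vesicles. The 4 libraries form 2 groups, immunoprecipitate (IP) with the YBX1 antibody and input, with replicates 1 and 2 in each. Each list set 1 IP against the input of the same replicate number, so nothing below compares treated with untreated cells, and no control antibody was analysed here. Whether replicates 1 and 2 are separate cultures is not stated in the labels. With 1 IP against 1 input in each list there was no test between conditions, and a peak's presence in both lists is the replicate check. The RNA was sequenced through a DNA library kit after ultraviolet crosslinking, sonication and RNase I, so a peak marks a recovered fragment and not a single crosslinked base.

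Messenger RNAs are packed into particles by proteins that set how long they last and how well they are translated. YBX1 and YBX3 bind along messenger RNA through a cold-shock domain and basic tails. PABPC1 coats the poly(A) tail, LARP1 binds the 5′ end of transcripts that code for the translation machinery, and ELAVL1 (HuR) binds AU-rich stretches, mostly near the 3′ end. CAPRIN1 and G3BP1 form a complex that seeds stress granules. The messenger RNAs of several such proteins are themselves known to be bound by them, and YBX1 protein is known to bind its own message. The data here concern RNA of these genes, not the proteins.

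Start windows are shown for YBX1 and YBX3, which held a shared promoter peak, and for CAPRIN1, which held a promoter peak in 1 list. PABPC1, which also held a shared promoter peak, is described without its sequence. The sequences are RefSeq's, on GRCh38.p14. Lower case marks 30 bases before the annotated start and capitals the first 30 transcribed bases. The peaks are on hg19, and no position was carried between the builds.
YBX1: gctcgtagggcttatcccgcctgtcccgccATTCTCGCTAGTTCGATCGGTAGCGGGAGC
YBX3: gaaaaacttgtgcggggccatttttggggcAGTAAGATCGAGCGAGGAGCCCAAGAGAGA
CAPRIN1: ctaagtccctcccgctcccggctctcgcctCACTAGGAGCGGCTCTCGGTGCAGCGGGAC
YBX1 is known to prefer CAUC in RNA. The letters CATC, searched on the transcribed strand only, were in none of these 3 windows over the 50 bases after the start, and in 11.9% of 35116 RefSeq start windows. This says only that the letters are not in that stretch. No hg19 sequence under a peak was used here.

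The reads in a peak are the deposited number of reads of the IP library inside it, not scaled to library size. Fold is the authors' own deposited enrichment of IP over input for each peak. Class is the submitters' annotation, in which promoter peaks lie around a transcription start. Exon, intron, upstream and intergenic peaks lie farther from one. Peaks of the 2 lists with at least 1 bp in common were counted as shared.

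Peaks named for members carried more reads than most. In replicate 1 they held 12 to 7886 reads with a median of 277.5, against 45 over the list, and 17 of 20 were above the list's median. In replicate 2 they held 6 to 1482 with a median of 144, against 15, and 11 of 14 were above it. Their folds ran from 3.6 to 34.15 and from 6.29 to 51.12, and 9 peaks in each list were below that list's median fold, 9.33 and 25.31. The replicate 2 median is a value that 3383 of its peaks share, both 6-read ELAVL1 peaks among them. The authors' false discovery rates for these peaks were high, 17.21% to 19.49% in replicate 1 and 29.23% to 100% in replicate 2. Single peaks found in only 1 list therefore carry little weight.

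By name, 3 of the 7 members had a shared peak: YBX1, YBX3 and PABPC1. Over all named genes the share was 34.9%. That background leaves out genes never named, while the 7 include G3BP1, which no row named. With so few members, the count is not read as a difference from it. By peak, 12 of the 20 named peaks of replicate 1 were shared, or 60.0% (95% Wilson interval 38.7 to 78.1), against 31.6% of all its peaks. In replicate 2 it was 8 of 14, or 57.1% (32.6 to 78.6), against 34.7%. The intervals cover counting error only, treat peaks of a gene as independent, and in replicate 2 reach below the background. Exon peaks made up 12 of 20, or 60.0% (38.7 to 78.1), in replicate 1 against 33.1% of the list. They made up 7 of 14, or 50% (26.8 to 73.2), in replicate 2 against 31.1%, and that interval includes the background. Counted by position instead of by name, with the peak's middle inside a member, exon peaks were 44.4% of 27 in replicate 1 and 30.4% of 23 in replicate 2, just below its background. The class still goes with the gene a peak is named for. At 4 shared sites in LARP1 it was exon or intron in replicate 1 and intergenic, for another gene, in replicate 2. These shares therefore do not say how many peaks lie in exons of members. The other named peaks were 4 promoter and 4 intron peaks in replicate 1, and 4 promoter, 2 intron and 1 upstream peak in replicate 2.

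**Figure D1:**
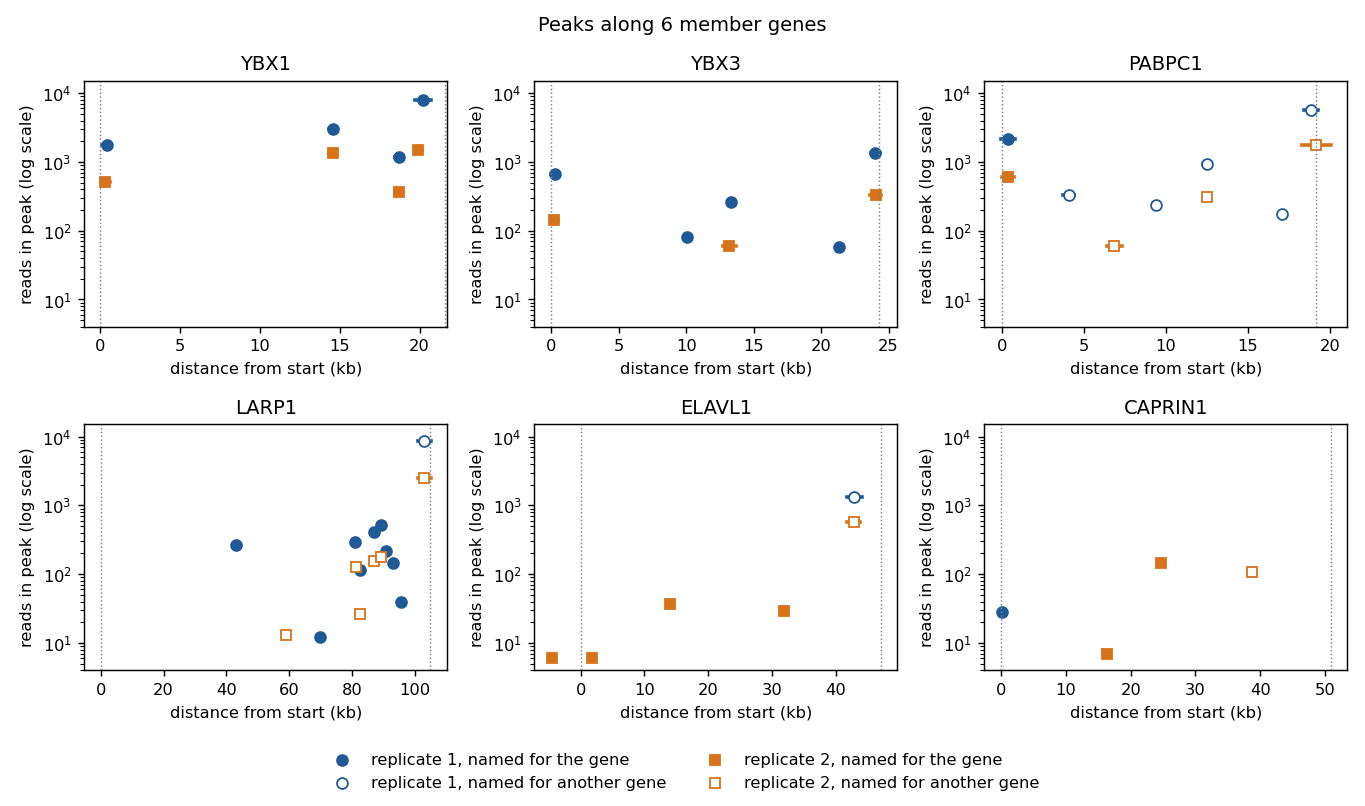
Reads in each peak (vertical axis, log scale) against the distance of the peak's middle from the transcription start in kb for 6 members, with dotted lines at the start and end given in the lists and a bar for the peak's length. Circles are replicate 1 and squares replicate 2, filled where the list names the peak for the gene and open where it names another gene. The highest peaks of PABPC1, LARP1 and ELAVL1 are open in both replicates.

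YBX1 lies on the forward strand of chromosome 1, and its listed transcripts span chr1:43147905-43169474 (hg19). It held 4 peaks in each list, and all 4 were shared and named YBX1 in both. The peak at the start, chr1:43148037-43148588 in replicate 1, held 1740 reads and its replicate 2 partner 505. The first of the exon peaks, with its middle 14565 bp after the start in both lists, held 3058 and 1339 reads. The next, 18690 and 18683 bp after the start, held 1183 and 368. The peak nearest the 3′ end, from chr1:43167592 in both lists, held 7886 and 1482. The order of these 4 peaks by reads was the same in both lists, with the 3′ peak first, then the exon peak of 3058 and 1339 reads, the start, and the exon peak of 1183 and 368.

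The 2 lists agreed within 10 bp at both edges for 2 of the 4 YBX1 pairs, the exon peaks before the 3′ one. The exon peak at chr1:43162236 began on the same base and ended 1 bp apart, and the next exon peak began 6 bp and ended 8 bp apart. The 3′ peak also began on the same base. The edges of the start peak lay 108 and 95 bp apart. A common first base was seen in 4.1% of the 8734 shared pairs, and here in 2 of 4. No pair of another member had a common first base. Starts within 10 bp were seen in 27.3% of all shared pairs and in 37.5% of the 16 pairs overlapping members. The 3′ peak was 1008 bp long in replicate 1 and 464 bp in replicate 2, which ended 544 bp earlier. Its reads differed by 5.32 times between the lists (95% exact interval 5.03 to 5.63, counting error only), but by 2.45 times per kb of peak. The other 3 pairs differed by 3.45 (3.12 to 3.81), 2.28 (2.14 to 2.44) and 3.21 (2.86 to 3.62) times. The intervals of the 4 ratios do not all meet, so the spread among YBX1 peaks was larger than counting error. PCR copies are not independent molecules, so true errors are wider.

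YBX1 folds were 11.25, 12.11, 10.1 and 34.15 from start to end in replicate 1 and 26.98, 13.15, 13.4 and 15.69 in replicate 2. The highest fold thus lay at the 3′ end in replicate 1 and at the start in replicate 2. Among 1856 coding genes with a shared exon peak, YBX1's exon peak ranked 24th by reads in replicate 1 and 72nd in replicate 2. The genes nearest to it in log2 reads and log2 fold over both lists were PCBP2 at a distance of 1.54, PPP2R2C at 1.68 and NFIC at 1.68. PCBP2, a poly(C)-binding protein, had 4840 and 1079 reads with folds of 13.92 and 15.4. NFIC, a transcription factor, had 7112 and 1593 reads, and PPP2R2C, a phosphatase subunit, 3665 and 1028. This likeness uses 4 values of 1 peak per list and is a description.

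YBX3 lies on the reverse strand of chromosome 12, with listed bounds chr12:10851675-10875953. It held 5 peaks in replicate 1 and 3 in replicate 2, all named YBX3, and 3 were shared. The peak at the 3′ end held 1330 and 335 reads, with folds of 16.4 and 15.74. The peak at the start held 660 and 143 reads, with folds of 9.58 and 14.58. An intron peak, 13348 and 13189 bp after the start, held 263 and 60 reads, with folds of 9.79 and 51.12. The 3′ peak had the most reads in both lists and the intron peak the fewest of the shared ones. The intron peak's fold in replicate 2 was the highest of any named member peak, and it rests on 60 reads over 951 bp. The 2 peaks of replicate 1 with no partner were exon peaks of 57 and 80 reads. YBX3's exon peak ranked 347th and 391st of the 1856 genes, far below YBX1's in both lists. From the 3′ end to the start, its pairs differed between lists by 3.97 (3.52 to 4.49), 4.38 (3.3 to 5.9) and 4.62 (3.85 to 5.57) times. Those intervals overlap. Per kb of peak the differences were 4.81, 13.5 and 4.56 times, so the pairs were not alike on that measure. The intron peak was 309 bp long in replicate 1 and 951 bp in replicate 2.

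YBX3 has an intronless copy, YBX3P1, at chr16:31579087-31580845. A shared peak named YBX3P1 covered 90.6% of it in replicate 1 and 88.3% in replicate 2. It held 4883 and 1250 reads, which is 2.04 and 2.32 times the reads of all YBX3 peaks together. Per kb of peak this was 3065 and 804.9 reads, against 2078 and 432.3 in YBX3's 3′ peak. How the authors' alignment placed reads that match both loci was not stated in the labels, so the reads of YBX3 and of YBX3P1 cannot be told apart and YBX3's values are uncertain. No peak named a processed copy of YBX1. A copy that no row names has no bounds in the lists, so a peak on it could carry another gene's name. Whether YBX1's reads also match such copies was not tested.

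PABPC1 lies on the reverse strand of chromosome 8, with listed bounds chr8:101715143-101734315. By name it held 1 peak in each list, at its start, with 2157 and 606 reads and folds of 3.6 and 11.06, and it was shared. That fold is the lowest of any named member peak in replicate 1. A further 5 peaks in replicate 1 and 3 in replicate 2 overlapped the gene and were named for MIR7705, a microRNA gene of 58 bp annotated inside PABPC1 near its 3′ end, at chr8:101715195-101715252. The largest of them, at the 3′ end, held 5773 and 1757 reads, more than the peak that carries PABPC1's name. Its folds were 9.61 and 27.85, and its reads differed by 3.29 times (3.11 to 3.47). It was 852 bp long in replicate 1 and 1763 bp in replicate 2, where its middle lay beyond the listed end of PABPC1. Per kb of peak the difference was 6.8 times. Another shared pair, 12499 and 12502 bp after the start, held 927 and 314 reads. In replicate 2 its false discovery rate was 100%. The remaining ones, in 1 list each, held 176, 238 and 330 reads in replicate 1 and 60 in replicate 2. All peaks overlapping PABPC1 together held 9601 and 2737 reads, against 2157 and 606 in the peak with its name. How many of the replicate 2 reads lie past the listed end was not tested.

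PABPC3, an intronless relative of PABPC1 at chr13:25670275-25672704, held 1 shared peak that covered 84.6% and 83.5% of the gene. It had 23293 and 5145 reads, 2.43 and 1.88 times those of all peaks overlapping PABPC1. Per kb of peak this was 10380 and 2534 reads, against 6776 and 996.6 in PABPC1's 3′ peak. In replicate 2 that 3′ peak has its middle beyond PABPC1's listed end, so 996.6 is not a value of PABPC1 alone. The folds of the PABPC3 peak were 5.42 and 14.36. PABPC3 is known from testis, and its sequence is close to that of PABPC1. As with YBX3P1, reads that match both loci cannot be told apart here, and the part this plays in PABPC1's values was not tested.

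LARP1, on the forward strand of chromosome 5 with listed bounds chr5:154092461-154197167, was the member whose naming differed most between the lists. Replicate 1 named 9 peaks for it, with 12 to 527 reads and 2024 in all, and replicate 2 named none. By position, 10 peaks of replicate 1 and 6 of replicate 2 overlapped LARP1, and 5 pairs were shared. All 6 of replicate 2 were named MIR378H, a microRNA gene of 84 bp at chr5:154209017-154209100, beyond the 3′ end of LARP1. The deposited distances from those peaks to the MIR378H start ran from -13633 to -57613 bp.
The mature microRNA that lends its name to these peaks is given with its seed, bases 2 to 8, in capitals, from RefSeq.
hsa-miR-378h: aCUGGACUuggugucagaugg
It is shown for the name alone, since 6 of the 7 replicate 2 peaks with that name lie within LARP1.

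The 3′ peak of LARP1, chr5:154193372-154197404 in replicate 1 and 4 bp and 11 bp from it at either edge in replicate 2, held 8754 and 2490 reads. Both lists named it MIR378H. It was the largest peak of any member in both lists by reads, at 4033 and 4018 bp also the longest, and its folds were 5.55 and 7.86. Per kb it held 2171 and 619.7 reads, less than YBX1's 3′ peak at 7823 and 3194. The other 4 shared pairs had their middles 81025 to 89272 bp after the start in replicate 1 and were named LARP1 in replicate 1, 3 as exon and 1 as intron. In replicate 2 all 4 were intergenic peaks of MIR378H. They held 290 and 129, 115 and 26, 412 and 154, and 527 and 178 reads. In replicate 2 the false discovery rate of all 4 was 100%, so that list gives them little weight. The gene name of these 4 pairs thus differs between the lists while their positions overlap by 285 to 823 bp.

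ELAVL1, on the reverse strand of chromosome 19 with listed bounds chr19:8023456-8070529, was named in replicate 2 only. Its 4 named peaks there held 29, 37, 6 and 6 reads, the last one at -4538 bp from the start, and none was shared. The smallest peaks of that list also held 6 reads, as did 3960 of its peaks. A larger peak near the 3′ end, chr19:8026444-8028752 in replicate 1, held 1345 reads, and its replicate 2 partner 564. Both lists named it TIMM44, the mitochondrial import gene that lies beyond the 3′ end of ELAVL1. Its folds were 4.32 and 8.75, and its reads differed by 2.38 times (2.16 to 2.64). In replicate 2 its deposited score was 31.34, with a false discovery rate of 84.46%, so 1 of the lists gives it little weight.

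CAPRIN1, on the forward strand of chromosome 11 with listed bounds chr11:34073229-34124157, had no shared peak by name or by position. Replicate 1 held 1 promoter peak of 28 reads with a fold of 17.04. Replicate 2 held an intron peak of 7 reads and an exon peak of 145 reads with a fold of 6.29. A further peak of 107 reads inside CAPRIN1 was named NAT10, an RNA acetyltransferase gene farther along the chromosome. The peaks of the 2 lists lay in different places.

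G3BP1 was named by no row, and its hg19 bounds were not used here. Between the listed genes on either side of it, LOC100652758 and GLRA1, at chr5:151151738-151202072, replicate 1 had 0 peaks and replicate 2 had 1. That peak held 6 reads, the smallest number in the list, and lay 848 bp from GLRA1. The smallest peak of replicate 1 held 11 reads. A G3BP1 signal under these floors would not be listed, so no signal was detectable at the depth and thresholds of these lists, which does not show that YBX1 leaves this transcript unbound.

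By position the members held more peaks than by name. Of 27 peaks of replicate 1 that overlapped a member, 7 were named for another gene only, and of 24 of replicate 2, 11 were. These peaks held 17543 of 38009 reads (46.2%) and 5792 of 10854 (53.4%). Over all peaks inside a listed gene, 23.3% in replicate 1 and 20.6% in replicate 2 were named for no gene that holds them. The members' counts are near that share in replicate 1 and above it in replicate 2, where 6 of the 11 lie in LARP1. That background takes peaks with their middle inside a gene, while the members' counts take any overlap. The shares of reads have no background here. By overlap with listed bounds, 5 of the 6 members with bounds had a shared pair, LARP1 and ELAVL1 being added and CAPRIN1 not, against 31.5% of 14365 genes. G3BP1, with no bounds, is not among the 6, and ELAVL1's pair had a false discovery rate of 84.46% in replicate 2. With so few members, this count is not read as a difference from the background either. Of the 16 pairs overlapping members, 8 were named for the member in both lists, 4 for it in 1 list and 4 in neither. Over all shared pairs, 9.33% had no gene name in common, and among the 16 these were the 4 of LARP1. The lists do not say how a peak over several genes was assigned.

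The largest peaks of 5 members lay near the 3′ end. In all 5 members with a shared overlapping pair, the peak with the most reads had its middle in the last 10% of the span from start to end, or beyond it, in both lists. The middle of YBX1's lay at 93.6% of the span in replicate 1 and 92.3% in replicate 2. For YBX3 it was 98.9% and 99.0%, for LARP1 98.3% and 98.3%, and for ELAVL1 91.2% and 90.9%. For PABPC1 it was 98.2% in replicate 1, and in replicate 2 it lay 8 bp beyond the listed end. This was also the most common place over all coding genes with a shared pair, at 44.5% of 4162 genes in both lists, so a 3′ position does not set a member apart. The span includes introns, and LARP1's span is 104707 bp in the lists against 134627 bp in current RefSeq, so its positions hold for the listed transcript. CAPRIN1, with no shared pair, was left out of this count and went the other way. Its highest-read peak lay at 0.167% of the span in replicate 1, with 28 reads, and at 48.4% in replicate 2, with 145.

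**Figure D2:**
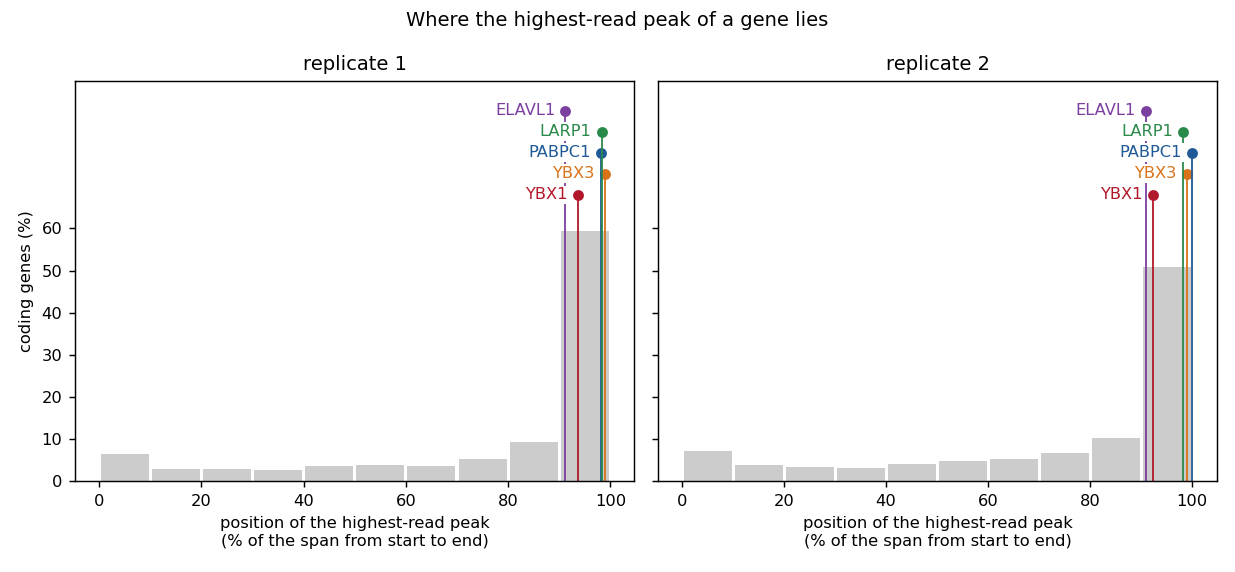
Position of the highest-read peak of 4162 coding genes with a shared pair, as a percent of the span from start to end (horizontal axis, peaks beyond an end placed in the end bin), against the percent of genes (bars), for each replicate. Lines mark 5 members, and all of them fall in the last bin, which holds 2468 genes in replicate 1 and 2116 in replicate 2.

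How much of a member's reads lay in that peak varied. It held 100% and 88.7% of the reads in ELAVL1's peaks, 81.2% and 83.3% in LARP1's, 60.1% and 64.2% in PABPC1's, 55.6% and 62.3% in YBX3's, and 56.9% and 40.1% in YBX1's. YBX1 in replicate 2 had the lowest of these shares, with its exon peak of 1339 reads close behind the 3′ peak of 1482. YBX1, YBX3 and PABPC1 also held a shared peak at the start, and LARP1 and ELAVL1 did not. These start peaks held fewer reads than the 3′ peak of the same gene in every case.

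Reads in shared member peaks were higher in replicate 1 in every pair. Over the 16 pairs overlapping members, replicate 1 held 2.25 to 5.32 times the reads of replicate 2, with a median of 3.37. Over the 8 pairs named for the member in both lists the median was 3.76, and per kb of peak 3.4. All 8734 shared pairs had a median of 3.02 and a 5th to 95th percentile range of 1.03 to 9.83, so every member pair lay inside the range of the lists. Depth of the libraries and RNA recovered cannot be told apart in this ratio. Folds went the other way: in 14 of the 16 pairs the replicate 2 fold was higher, the others being the 3′ peaks of YBX1 and YBX3. Over all peaks of the lists the median fold was also higher in replicate 2, at 25.31 against 9.33. The share over all shared pairs is not given here, so this direction is not read as a trait of the members.

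**Figure D3:**
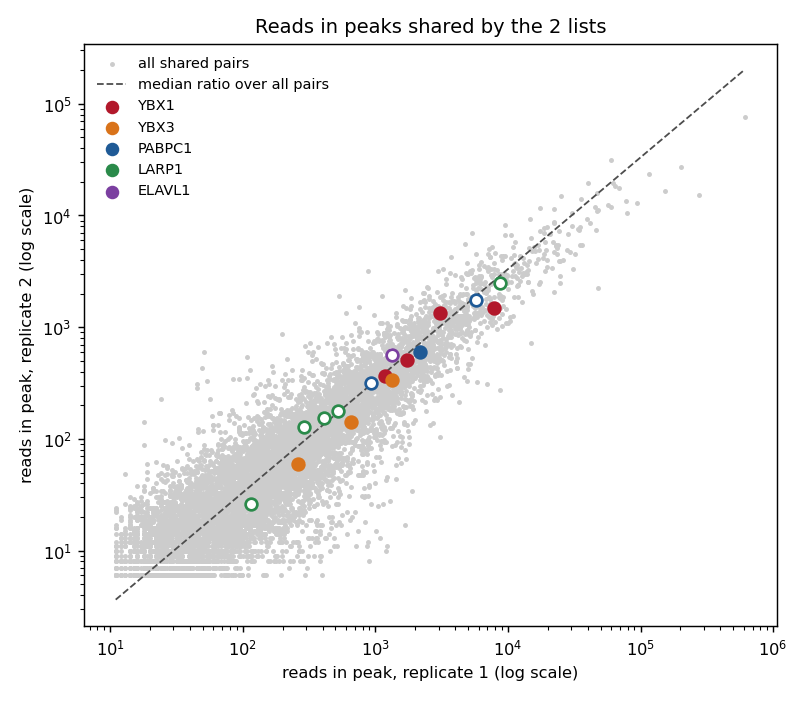
Reads in a shared peak in replicate 1 (horizontal axis, log scale) and replicate 2 (vertical axis, log scale) for all 8734 shared pairs (grey) and the 16 pairs overlapping members (coloured by gene, filled where both lists name the peak for the member). The dashed line is the median ratio of 3.02, and the member pairs run along it.

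The wider set of related genes gives the members their setting. Of 58 genes in 6 lists of related proteins, 47 were named in either list and 18 had a shared peak by name, or 22 by position. Among cold-shock domain genes it was 2 of 5: CARHSP1 with 2342 and 696 reads, and the germ-cell relative YBX2 with 33 and 13. Among genes of poly(A)-binding proteins and their partners it was 3 of 9, PABPC3, PABPC4 with 571 and 183 reads, and the nuclear PABPN1 with 139 and 76. Among partners of G3BP1 and CAPRIN1 it was 5 of 15. Among peaks named for the gene, UBAP2L had 893 and 203 reads and UBAP2 635 and 327. USP10, a deubiquitinase that binds G3BP1, had 385 and 178, CAPRIN2 321 and 186, and ATXN2L 49 and 21. By position ATXN2L held more than any of these, with 1597 and 489 reads in its best shared pair.

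La-related genes had no shared peak by name in 6, although all 6 were named in replicate 2, and 1, LARP6, had shared pairs by position. Among ELAV genes and other genes for AU-rich element binding proteins it was 1 of 8, HNRNPD, with 452 and 59 reads in an intergenic peak. By position it was 2 of 8: a shared pair inside ZFP36, which promotes decay of AU-rich messages, held 10887 and 3156 reads, and the one inside HNRNPD 37 and 32. Among general factors of messenger particles and decay it was 7 of 15. LSM14A, a P-body component, had 9170 and 1538 reads, and STAU1, a double-stranded RNA binder, 3794 and 884. XRN1, the 5′ to 3′ exonuclease, had 1385 and 641 in an upstream peak, and no shared pair lay inside the gene. PATL1, a decay factor, had 1048 and 463, UPF1 237 and 93, EDC3 100 and 66, and PUM2, a Pumilio protein, 37 and 21. The median of the best shared peak over the 18 genes was 512 and 184 reads, against 343 and 100 over all 5058 genes with a shared peak. No list was tested, and the share of 18 of 58 counts genes never named, while the background of 34.9% does not.

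**Figure D4:**
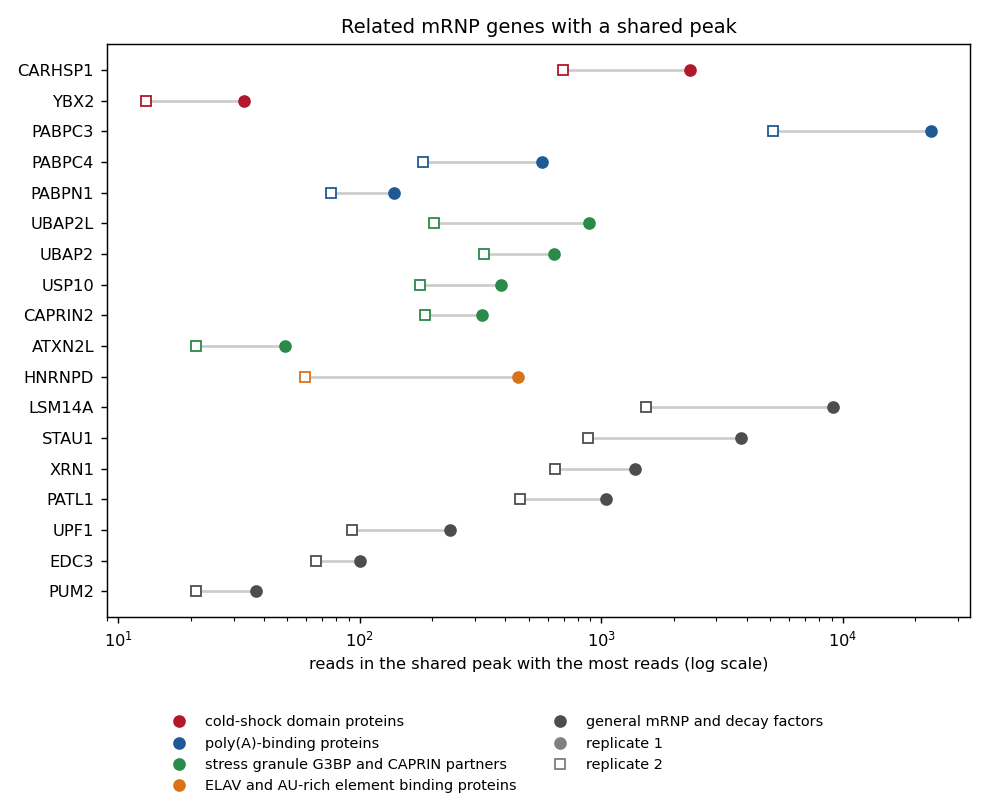
Reads in the shared peak with the most reads (horizontal axis, log scale) for the 18 related genes with a shared peak by name, coloured by list, with filled circles for replicate 1 and open squares for replicate 2. PABPC3 is the highest in both replicates with 23293 and 5145 reads.

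The cell type was checked by markers named in the lists. Of 7 markers of an epithelial carcinoma line, 5 had a shared peak by name: KRT7, KRT8, KRT18, VIM and CDH1, against 34.9% of all named genes. EPCAM was named in replicate 1 only and KRT19 in replicate 2 only. KRT18 had 1 shared pair by name, and its replicate 1 peak of 8975 reads was also named for KRT8. KRT8 had 8 shared pairs by name, so its count does not rest on that peak alone. VIM, with 14420 and 3908 reads, is also strongly expressed by fibroblasts, so it does not tell the line from them. None of 6 exocrine, 4 endocrine and 3 endothelial markers was named. Of 5 immune markers 1 was named, CD14, in replicate 2 only. Of 7 markers of fibroblasts, the cells from which the vesicles come, 2 were named and none had a shared peak by name, though COL1A1 had 1 by position. The part of vesicle RNA in the members' peaks was not tested.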

How the data were processed

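The members and the lists of related genes were chosen with earlier results of these data known. The submitters' processing notes name cutadapt 1.9.1, Bowtie2 2.2.4 and the build hg19. The program that called the peaks was not given in the sources used here. Per the file headers, each peak has a count of reads, which its authors deposited without scaling to depth, a fold (a ratio of IP over input) and a score. The deposited score equals -10 log10 of a p-value. Library depths were not used here.

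Rows were collapsed to unique peaks with pandas 2.3.3. A gene's bounds were the outermost starts and ends of its listed transcripts. This gave bounds to 14365 symbols, and 118 with no single place had none. Overlap functions were tested on simulated peaks. Intervals on shares are Wilson's and those on ratios of reads exact binomial, both at 95% (scipy 1.17.1). All 7 members were named, with related genes that had a shared peak (some are not reported here and were left out of the counts) and, for YBX1, the 3 nearest genes. Genes beside members, copies of members, markers, and some of the related genes with a shared pair by position are also named. ATXN2L and ZFP36 by position were added after their values were seen. Alternatives were the overlap rule, stricter score and fold, class, bounds in place of names, and each list alone. The rule on the last 10% and overlap with bounds were added after the data were seen.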

Additional observations from a re-analysis of the deposited data

How the results depend on the processing

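No paired analysis was possible because the results come from no test, and each list already sets an IP against the input of the same number. Of the values recomputed under other settings, 32 stayed within their error or within 1.5 times of the count reported, and 8 did not. The count of members with a shared peak was 5 where peaks were assigned by position, and 5 members were named in each list taken alone, so the lowest and highest values without replicate 1 or 2 were both 5. For the related genes these were 37 and 39. At a negative log10 p of 5 or more, 88.9% of 9 member peaks of replicate 2 were shared. Only 3 of the 5 members had their largest peak in the last twentieth of the span, a setting chosen after seeing the data. With a fold of 4 or more PABPC1 lost its shared peak by name. The number of reads limits peaks of 6 to 11 reads, which cannot be told from the smallest listed. The causes were not tested.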
